A study of Mus musculus with 12 samples.

Results

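Prostaglandins are local lipid signals whose level is set by enzymes that make them, a transporter and an enzyme that remove them, and receptors that read them. A list of 10 such mouse genes was taken, and a probe set was used where the platform annotation paired it with exactly 1 of them. This gave 8 probe sets for 8 of the 10 genes, out of 35556 probe sets and 18820 genes on the array. Ptgs1 and Ptger1 are not analysed here. The 8 genes are 3 of synthesis (Ptgs2, Ptges, Ptgis), 2 of removal (Hpgd, Slco2a1) and 3 receptors of prostaglandin E2 (Ptger2, Ptger3, Ptger4). In GRCm38.p6, Ptgs2 lies at chr1:150100031-150108234, Ptges at chr2:30889471-30931020, Ptgis at chr2:167203194-167252150, Hpgd at chr8:56294552-56321046, Slco2a1 at chr9:103007061-103096002, Ptger2 at chr14:44988111-45003820, Ptger3 at chr3:157566821-157644758 and Ptger4 at chr15:5233399-5244187, by RefSeq annotation.

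RNA of the proximal jejunum of 12 mice was hybridised to 1 Affymetrix array per mouse, in 4 groups of 3. The groups were TLR2 knockout mice (B6.129-Tlr2tm1Kir/J) given methotrexate (MTX), the same strain untreated, wild-type mice (C57BL6/J) given methotrexate, and untreated wild type. Methotrexate, an antifolate drug that injures the gut lining (mucositis), was given by intraperitoneal injection on 4 days, each time at 40 mg per kg, and tissue was taken on day 7. The knockout carries a targeted allele in the germ line, whether wild-type mice were littermates is not recorded, and neither a vehicle injection nor a sampling day is recorded for the untreated mice.

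Arachidonic acid, freed from membranes by phospholipases A2, is turned into prostaglandin H2 by the cyclooxygenases, of which Ptgs2 (COX-2) is the inducible one. Terminal synthases then make prostaglandin E2, prostacyclin, prostaglandin D2 or thromboxane. In the gut, prostaglandin E2 protects the epithelium, supports its repair and drives secretion. Hpgd, which is abundant in differentiated epithelium, oxidises prostaglandins to inactive products.

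Promoters of the 3 genes with the widest range over the arrays are shown first, since 2 of them were higher and 1 lower in methotrexate-treated knockout mice. The sequences are RefSeq's, build GRCm38.p6, from 250 bases before to 50 bases after an annotated start of the gene, and are written 5′ to 3′ on the gene's strand. Capitals mark matches, on either strand, to 7 motifs chosen after these sequences were seen: TATAAA and the like TTAAAA, the E-box CACGTG, the cAMP element half-site TGACG, the C/EBP palindrome TTGCGCAA, the GC box GGGCGG and CCAAT. The Ptgs2 promoter lies at chr1:150099781-150100080 (+ strand), the Ptges promoter at chr2:30903248-30903547 (- strand) and the Hpgd promoter at chr8:56294302-56294601 (+ strand). The Ptges window lies inside the Ptges span given above, so it belongs to a start within that span and not to its outer 5′ end.
Ptgs2: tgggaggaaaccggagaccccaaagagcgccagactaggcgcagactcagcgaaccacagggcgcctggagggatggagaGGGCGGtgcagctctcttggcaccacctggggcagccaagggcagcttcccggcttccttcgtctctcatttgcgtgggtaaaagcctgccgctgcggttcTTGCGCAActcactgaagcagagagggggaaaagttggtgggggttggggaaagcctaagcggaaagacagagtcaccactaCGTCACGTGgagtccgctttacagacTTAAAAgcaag
Ptges: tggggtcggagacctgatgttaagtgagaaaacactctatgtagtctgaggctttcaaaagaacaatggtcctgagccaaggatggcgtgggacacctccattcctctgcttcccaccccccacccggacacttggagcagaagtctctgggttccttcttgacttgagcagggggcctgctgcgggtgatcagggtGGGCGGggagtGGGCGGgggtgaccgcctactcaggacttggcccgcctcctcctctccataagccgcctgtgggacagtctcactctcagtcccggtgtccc
Hpgd: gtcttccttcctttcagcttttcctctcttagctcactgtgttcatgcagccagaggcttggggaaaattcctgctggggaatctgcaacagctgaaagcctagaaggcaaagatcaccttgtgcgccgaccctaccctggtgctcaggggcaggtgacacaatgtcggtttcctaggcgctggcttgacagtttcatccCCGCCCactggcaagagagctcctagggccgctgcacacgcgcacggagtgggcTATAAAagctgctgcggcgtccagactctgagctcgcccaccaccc
The Ptgs2 window held the C/EBP palindrome, found in 0.183% of 32851 promoters of this length, and an E-box (7.15%), which shares 2 bases with the cAMP half-site (20.8%). It also held TTAAAA (19.2%) and 1 GC box (35.7%). The TTAAAA, the E-box and the half-site lie after the annotated start, beginning at bases 40, 17 and 14 counted from it. The Ptges window held 2 GC boxes and none of the other 6 motifs. The Hpgd window held 1 TATAAA (13.6%), which begins at base 5 after the annotated start, and 1 GC box. CCAAT, found in 37.4% of promoters, was in none of these 3 windows. A match describes the letters only, and binding was not measured.

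Values are the log2 signals the authors deposited, on which 1 unit is a factor of 2, and each gene is compared with itself between groups, since signals of different probe sets are not comparable. Differences were tested with limma, fitted over all 18820 genes and 12 arrays, and "rose" and "fell" are used for an adjusted p (Benjamini-Hochberg) under 0.05. Values of a group are mean ± SD over 3 mice, and values after ± in a log2 change are limma's standard error. The comparisons share groups, so their results are not independent of each other.

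Some facts of the arrays bear on the results. The signal of Tlr2, the targeted gene, was 5.28 to 6.18 in methotrexate-treated knockout arrays and 4.36 to 5.02 in untreated knockout arrays, against 4.49 to 4.65 in methotrexate-treated and 4.37 to 4.65 in untreated wild-type arrays. It was thus not lower in arrays labelled knockout. Whether its probes lie inside the targeted stretch is unknown, so the signal does not check the labels, and genotypes are given as labelled. Small-intestinal markers were present in all groups, with Fabp2 at 7.22 or more and Vil1 at 8.30 or more, while Lct was at 3.45 to 3.88 in methotrexate-treated knockout arrays, against 9.89 or more in every other group. The mean signal of 11 pancreatic acinar genes was 11.7 to 12.4 in 7 arrays and 3.87 to 5.23 in the other 5. These 7 were 2 of the methotrexate-treated knockout, 2 of the untreated knockout, 1 of the methotrexate-treated wild type and 2 of the untreated wild type. By replicate number, replicate 1 was low and replicate 2 high in all 4 groups, and replicate 3 was high in 3 of 4.

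In knockout mice, methotrexate was followed by higher expression of all 3 synthesis genes and of the receptor gene Ptger2, and by a large fall of the breakdown gene Hpgd. Ptges rose 4.93-fold, Ptgs2 4.03-fold, Ptgis 2.36-fold and Ptger2 1.79-fold, while Hpgd was 9.70-fold lower. The importer gene Slco2a1 and the receptor genes Ptger3 and Ptger4 did not pass the test. The arrays of the 2 groups did not overlap for 6 of the 8 genes, as was so for 44.6% of all genes. By the test, 5 of the 8 were called, 4 higher and 1 lower, where 34.8% of all genes tested were called (18.8% higher, 16.0% lower). The median change of the 8 genes was 0.51, and that of all genes was -0.02.

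Ptgs2, the inducible cyclooxygenase, read 8.69, 7.74 and 8.37 in methotrexate-treated knockout mice, against 6.61, 6.25 and 5.90 in untreated knockout mice. All 3 treated arrays lay above all untreated ones, with replicate 1 the highest of the treated. It rose by 2.01 ± 0.28 on the log2 scale (adjusted p = 0.000189).

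Ptges, the inducible microsomal prostaglandin E synthase that works downstream of COX-2, read 8.42, 8.79 and 8.86 in methotrexate-treated knockout mice, against 6.53, 6.41 and 6.23 in untreated knockout mice. The groups were far apart relative to the spread within them. The rise was 2.30 ± 0.13 (adjusted p = 1.69e-07).

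Ptgis, the prostacyclin synthase, read 6.19, 6.43 and 6.26 in methotrexate-treated knockout mice, against 4.99, 4.93 and 5.26 in untreated knockout mice. The arrays did not overlap, and no treated array stood apart. It rose by 1.24 ± 0.12 (adjusted p = 8.77e-06).

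Hpgd, the 15-hydroxyprostaglandin dehydrogenase that begins the breakdown of prostaglandins, read 6.42, 6.88 and 6.66 in methotrexate-treated knockout mice, against 10.24, 9.78 and 9.79 in untreated knockout mice. Every treated array was far below every untreated one. The change was -3.28 ± 0.17 (adjusted p = 1.04e-07), with a 95% interval of -3.65 to -2.91.

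Slco2a1, the transporter that brings prostaglandins into cells for breakdown, read 8.48, 8.48 and 8.62 in methotrexate-treated knockout mice, against 9.02, 8.62 and 8.76 in untreated knockout mice. The treated arrays lay just below the untreated ones, with the nearest values almost equal. The difference of -0.27 ± 0.16 did not pass (adjusted p = 0.216), with a 95% interval of -0.62 to 0.07.

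Ptger2 encodes EP2, a prostaglandin E2 receptor that raises cAMP. It read 4.59, 4.00 and 4.33 in methotrexate-treated knockout mice, against 3.37, 3.78 and 3.25 in untreated knockout mice. These are dim values, the gene's mean over all arrays being at the 31.4th percentile of all genes, but the groups did not overlap. It rose by 0.84 ± 0.17 (adjusted p = 0.00232). With arrays weighted by how little they deviated from their group means over all genes, it rose by 0.51, still past the test. That fit leans on replicate 2, weighted 2.86 in treated and 2.22 in untreated knockout mice. The other knockout arrays had weights of 0.245 to 1.02.

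Ptger4 encodes EP4, which also raises cAMP and is the prostaglandin E2 receptor best known from intestinal epithelium and macrophages. It read 7.58, 7.48 and 7.49 in methotrexate-treated knockout mice, against 7.96, 7.52 and 7.88 in untreated knockout mice, with overlapping arrays. The difference was -0.27 ± 0.20 (adjusted p = 0.353), with an interval of -0.71 to 0.18. Ptger3, which encodes EP3, a receptor that lowers cAMP, is described with the pancreatic signal below.

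**Figure D1:**
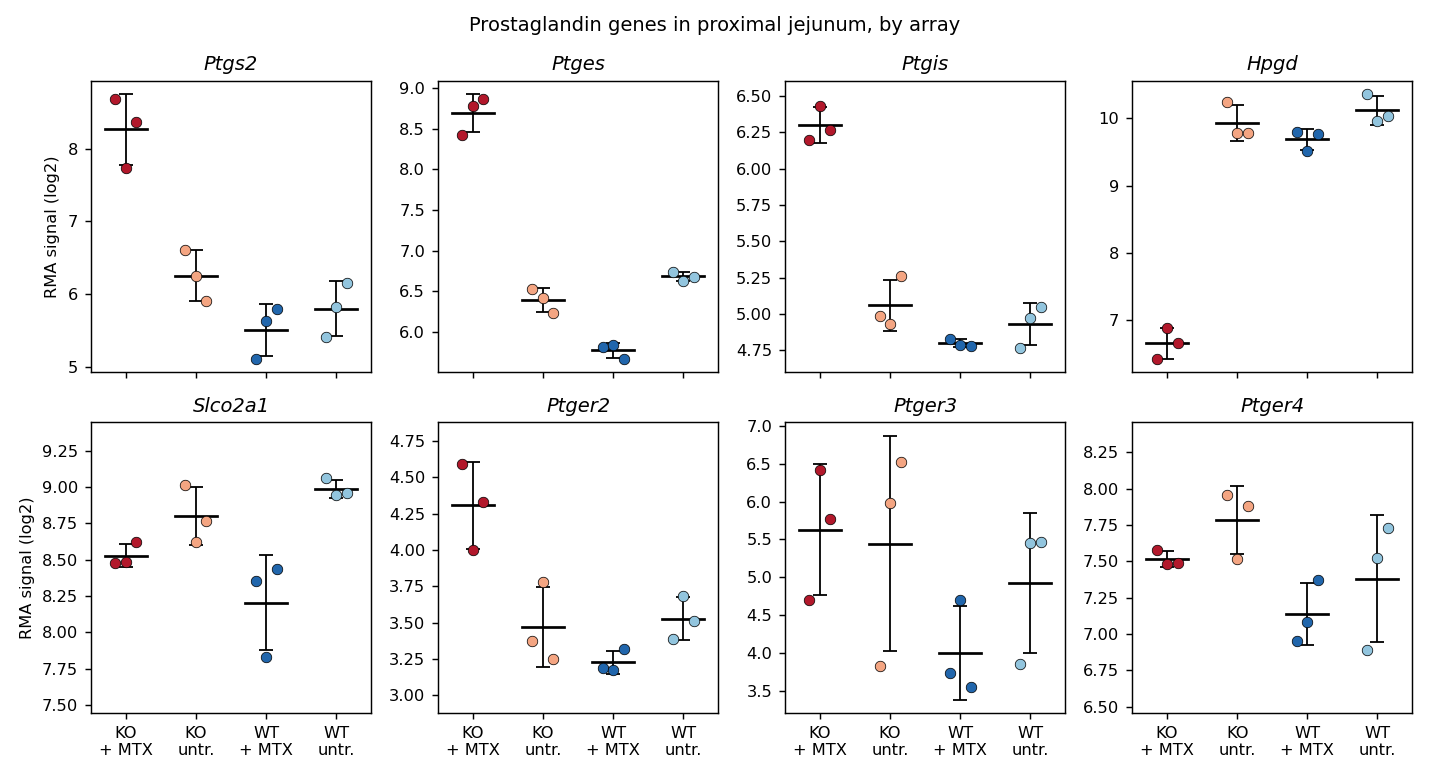
Log2 signal of the 8 prostaglandin genes in each of the 12 arrays, 1 point per mouse, with replicates 1 to 3 from left to right; the bar is the group mean and the whiskers are 1 SD (n = 3), and the vertical scales differ between panels. Ptgs2, Ptges, Ptgis and Ptger2 are highest and Hpgd lowest in methotrexate-treated knockout mice, while the arrays of Ptger3 spread widely within groups.

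Markers of several cell types moved with these genes, and in bulk tissue fewer cells of a type and less RNA per cell cannot be told apart. The marker counts are to be read against the 18.8% of all genes called higher and 16.0% called lower. All 10 enterocyte markers fell in knockout mice after methotrexate, with a mean list signal of 7.17 to 9.23 in treated and 11.6 to 11.8 in untreated arrays, beside the fall of Hpgd. All 10 fibroblast markers rose, with list means of 8.96 to 9.08 in treated and 6.68 to 7.09 in untreated arrays. Macrophage markers rose in 7 of 8 cases (7.40 to 7.57 in treated, 5.63 to 5.97 in untreated arrays) and endothelial markers in 9 of 10 (7.34 to 7.47 and 6.20 to 6.43). Of 6 markers of enteric neurons and glia 5 rose (list means 5.37 to 5.66 in treated, 4.35 to 4.74 in untreated arrays), of 8 mast cell markers 4 (4.67 to 4.89 and 3.66 to 3.80) and of 5 mesothelial markers 2 (6.72 to 6.94 and 5.47 to 5.73). Of 7 smooth muscle markers 3 rose, of 6 adipocyte markers 1 fell, and of 11 acinar markers 0 passed. Of 8 tuft cell markers 4 fell and 1 rose (3.77 to 3.92 in treated, 4.38 to 4.54 in untreated arrays), and of 7 neutrophil markers 3 rose. The neutrophil list stood at 6.26 in replicate 1 of the treated knockout, the array with the highest Ptgs2, and at 4.15 and 4.19 in the other two. The change of Ptgs2 without that array was 1.80 (adjusted p = 0.000653). The part of the other cell types in the changes of these genes was not tested.

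In the wild type, Ptges fell after methotrexate, in the direction opposite to that in the knockout, and none of the other 7 genes passed. Ptges was 1.88-fold lower in treated than in untreated mice. One of 8 genes was thus called, where 0.0744% of all genes tested were called (0.0319% lower), and 3 of 8 had an unadjusted p under 0.05, as did 11.7% of all genes. The arrays of the 2 groups did not overlap for 4 of the 8 genes (Ptges, Hpgd, Slco2a1 and Ptger2, all lower after methotrexate), as was so for 22.6% of all genes. All 8 differences were below 0, from -0.93 (Ptger3) to -0.13 (Ptgis) with a median of -0.36, while the median over all genes was -0.00281. Ptger3 was higher in arrays with pancreatic acinar signal, which in the wild type were 1 treated and 2 untreated. Over 22 other settings the wild-type change of Ptger3 lay between -1.50 and -0.39.

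Ptges read 5.81, 5.84 and 5.66 in methotrexate-treated wild-type mice, against 6.74, 6.63 and 6.68 in untreated wild-type mice. Both groups were tight and lay well apart. The change was -0.91 ± 0.13 (adjusted p = 0.0437). The call is marginal: it held in 9 of 22 other settings, and over all 22 the change was between -0.99 and -0.86 and the adjusted p between 0.000819 and 0.242. In the wild type 0 markers of the 12 cell type lists passed, where 0.0744% of all genes did. The list means of some were nevertheless lower after methotrexate. They were 3.77 to 4.20 in treated and 4.28 to 4.49 in untreated arrays for tuft cells, 4.14 to 4.82 and 5.09 to 7.40 for adipocytes, and 5.91 to 6.08 and 6.28 to 6.31 for endothelium, none of these overlapping. The macrophage list, at 5.15 to 5.80 in treated and 5.79 to 6.04 in untreated arrays, overlapped slightly. The part of these cell types in the lower values of Ptges and of the other genes was not tested.

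Slco2a1 read 8.35, 7.83 and 8.44 in methotrexate-treated wild-type mice, against 9.06, 8.95 and 8.96 in untreated wild-type mice. All treated arrays were below all untreated ones, most of all replicate 2. The difference of -0.78 ± 0.16 did not pass limma's test after adjustment over all genes (adjusted p = 0.107). It passed in 2 of 22 other settings, the presence of pancreatic RNA as a block (-0.86, adjusted p = 0.0444) and array weights (-0.68, adjusted p = 0.00642). Over all 22 the adjusted p reached up to 0.340. In the weighted fit, replicate 2 held most of the untreated wild-type weight, 6.69 against 0.392 and 0.940 for replicates 1 and 3.

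Hpgd read 9.80, 9.51 and 9.77 in methotrexate-treated wild-type mice, against 10.36, 9.96 and 10.03 in untreated wild-type mice, a difference of -0.43 ± 0.17 that did not pass (adjusted p = 0.379). Its interval of -0.80 to -0.06 does not reach the size of the change in the knockout. Ptgs2 read 5.11, 5.63 and 5.79 in methotrexate-treated wild-type mice, against 5.41, 5.83 and 6.16 in untreated wild-type mice, with an interval of -0.91 to 0.34. For Ptgis the interval was -0.39 to 0.12, for Ptger2 -0.67 to 0.07 and for Ptger4 -0.69 to 0.20. Enterocyte markers in wild-type mice had 0 of 10 called, with list means of 11.6 to 11.9 in treated and 11.8 to 11.9 in untreated arrays.

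The methotrexate effect differed between the genotypes for 5 of the 8 genes by the interaction test, where 23.8% of all genes were called. For Ptges the effect in the knockout exceeded that in the wild type by 3.21 ± 0.18 (adjusted p = 7.5e-07), for Ptgs2 by 2.30 ± 0.40 (adjusted p = 0.00141), for Ptgis by 1.37 ± 0.17 (adjusted p = 0.000116) and for Ptger2 by 1.14 ± 0.24 (adjusted p = 0.00449). For Hpgd the effect was lower in the knockout, with a difference of -2.85 ± 0.24 (adjusted p = 1.03e-05). For Slco2a1 the difference between the effects was 0.51 ± 0.22 (adjusted p = 0.132), and for Ptger4 it was -0.03 with an interval of -0.66 to 0.60.

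**Figure D2:**
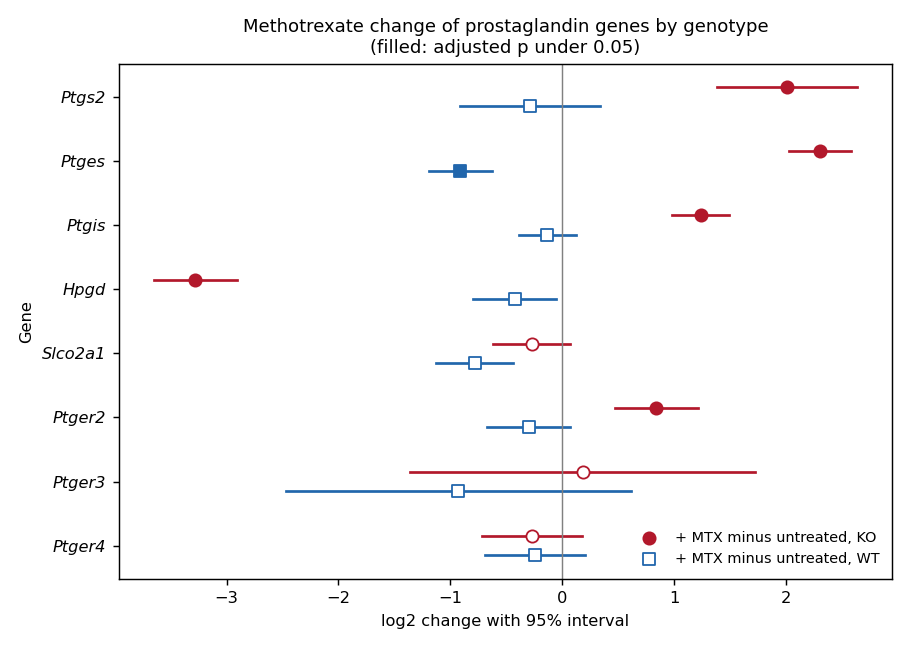
Log2 change after methotrexate (treated minus untreated) of each gene in knockout mice (red circles, above) and in wild-type mice (blue squares, below), with 95% intervals from limma that are not adjusted for the number of genes; filled symbols mark an adjusted p under 0.05. Ptges is filled on opposite sides of 0, at 2.30 in the knockout and -0.91 in the wild type.

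Between methotrexate-treated mice of both genotypes, Ptges was 7.57-fold, Ptgs2 6.74-fold, Ptgis 2.83-fold and Ptger2 2.11-fold higher in the knockout, and Hpgd was 8.20-fold lower. These 5 of 8 genes passed, 4 higher and 1 lower, where 36.9% of all genes were called (20.2% higher, 16.8% lower), and the arrays did not overlap for 7 of 8 genes and for 46.2% of all genes. They had adjusted p-values from 2.87e-08 for Ptges to 0.000339 for Ptger2. In this comparison Ptger4 was higher by 0.38 ± 0.20 (adjusted p = 0.182) and Slco2a1 by 0.32 ± 0.16 (adjusted p = 0.142) without passing. Slco2a1 passed with the pancreatic signal as a block (0.40, adjusted p = 0.0398) and after quantile normalisation (0.42, adjusted p = 0.0496).

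Between untreated mice, 0 of the 8 genes passed limma's test, where 0.0106% of all genes did, and 1 had an unadjusted p under 0.05, as did 6.19% of all genes. This was Ptges, whose arrays did not overlap (as for 13.1% of all genes), at 6.39 ± 0.15 in knockout and 6.68 ± 0.05 in wild-type mice (adjusted p = 0.786). The other differences between untreated knockout and wild-type mice lay between -0.19 for Slco2a1 and 0.52 for Ptger3.

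Ordered by level over the 4 groups, the genes fell into a few patterns. For Ptgs2 and Ptgis, methotrexate-treated knockout mice stood alone at the top, and the ranges of the other 3 groups overlapped between neighbours. Ptger2 had the same single group on top. Ptges had 4 levels with no overlap between neighbours, which were 8.69 ± 0.23 in methotrexate-treated knockout, 6.68 ± 0.05 in untreated wild-type, 6.39 ± 0.15 in untreated knockout and 5.77 ± 0.09 in methotrexate-treated wild-type mice. Hpgd had the same group alone at the bottom, at 6.66 ± 0.23, and among the others only neighbours in the order overlapped. Slco2a1 was lowest in methotrexate-treated wild-type mice (8.21 ± 0.33), then in methotrexate-treated knockout mice (8.53 ± 0.08), and the untreated groups above overlapped each other. For Ptger3 and Ptger4 every group overlapped its neighbour.

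Of the 8 genes, Ptger3 differed most, within every group, between arrays with and without pancreatic acinar signal. In methotrexate-treated knockout mice it read 4.70, 6.42 and 5.77, against 3.83, 5.98 and 6.53 in untreated knockout mice, and in methotrexate-treated wild-type mice 3.74, 4.70 and 3.54, against 3.85, 5.46 and 5.47 in untreated wild-type mice. Its 7 arrays with high acinar genes read 4.70 to 6.53 and the other 5 read 3.54 to 4.70, and within each of the 4 groups the arrays with acinar signal were higher, by 1.39 in treated and 2.43 in untreated knockout mice and by 1.06 in treated and 1.61 in untreated wild-type mice. These figures rest on 1 or 2 arrays a side. Ptger3 passed in 0 of the 5 comparisons, and its interval for methotrexate in the knockout, -1.36 to 1.72, leaves changes of either sign possible, with 0.18 over all arrays and -0.63 when untreated knockout replicate 1 was left out. With the acinar signal as a block, Ptger3 was higher in methotrexate-treated knockout than in methotrexate-treated wild-type mice (1.09, adjusted p = 0.0086), against 1.63 ± 0.70 (adjusted p = 0.0946) without it. It passed in 6 of 22 settings in all, with changes of 1.09 to 2.32 over the 22. The others were array weights (2.32, adjusted p = 0.0015), the replicate number as a block (1.63, adjusted p = 0.00989), a fit of the 2 treated groups alone (adjusted p = 0.0401), and leaving out replicate 1 of the treated knockout (2.10, adjusted p = 0.0457) or of the untreated knockout (adjusted p = 0.0313). For the other 7 genes the ranges of the 7 and the 5 arrays overlapped widely, and the 5 genes called in the knockout after methotrexate were also 5 with this block.

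**Figure D3:**
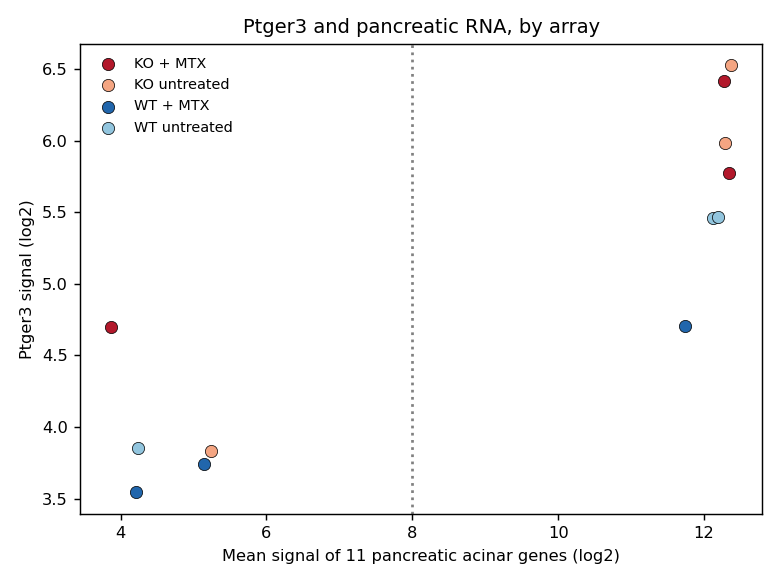
Log2 signal of Ptger3 in each array (vertical axis) against the mean log2 signal of 11 pancreatic acinar genes in the same array (horizontal axis), coloured by group; the dotted line is the limit of 8 used to separate the arrays. The 7 arrays on the right lie at or above 4.70, and the 5 on the left at or below 4.70.

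Other genes of the pathway were taken from lists by role. Of 50 measured genes in 5 lists, 11 rose and 12 fell in knockout mice after methotrexate, to be read against the 34.8% of all genes called (18.8% higher, 16.0% lower). In wild-type mice 0 of the 50 passed limma's test, where 0.0744% of all genes did, and 9 had an unadjusted p under 0.05, against 11.7% of all genes. The wild-type changes of the 50 lay between -1.32 and 1.16. Among 17 phospholipases A2, 6 rose and 4 fell in the knockout, with a median of 0.14. Pla2g4a, the cytosolic enzyme that frees arachidonic acid, rose by 0.93 ± 0.26 (adjusted p = 0.0159), but with replicate 3 of the untreated knockout left out it did not pass (adjusted p = 0.0654). When only the 2 knockout groups were fitted, the calls of Pla2g4a, Ptgr1, Tlr2, Tbxas1 and Hpgds were lost (adjusted p = 0.0599 to 0.116). The secreted enzyme genes Pla2g2a, known to carry an inactivating frameshift in C57BL/6 mice, and Pla2g2f rose by 2.78 ± 0.47 and 2.48 ± 0.43, Pla2g12b fell (-3.40 ± 0.40), and Pla2g6, a calcium-independent enzyme, fell (-0.86 ± 0.12).

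Of 8 other synthases, 2 rose and 3 fell in the knockout, where 18.8% of all genes were called higher and 16.0% lower. Tbxas1, the thromboxane synthase, changed by 0.77 ± 0.22 (adjusted p = 0.0186) and Hpgds, the haematopoietic prostaglandin D synthase, by 0.79 ± 0.25 (adjusted p = 0.0277). Both lost their call with 1 array left out, Hpgds without any one of 4 arrays (adjusted p up to 0.114) and Tbxas1 when replicate 3 of untreated knockout mice was left out (adjusted p = 0.0676). Falls were larger: Prxl2b, a prostaglandin F synthase, at -2.70 ± 0.16, Cbr1, a carbonyl reductase acting on prostaglandins, at -2.25 ± 0.16, and Ptges2, another membrane-bound prostaglandin E synthase, at -1.02 ± 0.14. Ptgds, the lipocalin-type prostaglandin D synthase, was at -0.16 (adjusted p = 0.409).

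Among 6 genes of later breakdown and export, 2 fell and 1 rose, where 16.0% of all genes were called lower and 18.8% higher. Ptgr2, a reductase that acts on the product of Hpgd, read 6.31, 5.91 and 5.68 in methotrexate-treated knockout mice, against 7.84, 7.56 and 7.55 in untreated knockout mice, and fell (-1.68 ± 0.15, adjusted p = 6.97e-06). Ptgr1, a related reductase, was at -0.65 ± 0.19 (adjusted p = 0.0205), a call lost without replicate 2 of either knockout group (adjusted p = 0.0853 untreated, 0.0794 treated). Abcc4, an exporter of prostaglandin E2, read 8.29, 8.24 and 7.87 in methotrexate-treated knockout mice, against 5.84, 5.55 and 5.59 in untreated knockout mice, and rose by 2.47 ± 0.19 (adjusted p = 1.99e-06).

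Where 34.8% of all genes were called in the knockout, 1 of 4 receptors of other prostanoids passed. It was Ptgir, the prostacyclin receptor, at 5.03, 5.10 and 5.19 in methotrexate-treated knockout mice, against 3.69, 3.77 and 3.97 in untreated knockout mice, so that the receptor gene rose (1.30 ± 0.11, adjusted p = 2.84e-06) alongside the prostacyclin synthase gene Ptgis. The untreated values of Ptgir are dim, below the array medians of 4.37 to 4.56. Among genes of the lipoxygenase and leukotriene branch, 1 of 15 genes rose and 3 fell, with a median of 0.08, a number of calls no greater than the 34.8% of all genes called would give. Lta4h, which makes leukotriene B4, and Ltb4r1, its receptor, both fell by 1.32 on the log2 scale (-1.32 ± 0.18 and -1.32 ± 0.20). Ggt5, which converts leukotriene C4 to D4, rose by 1.72 ± 0.16, and Dpep1, which acts on leukotriene D4, fell (-2.26 ± 0.34). Alox5, the lipoxygenase that begins leukotriene synthesis (0.12, adjusted p = 0.729), and Alox15, a lipoxygenase with other products (0.08, adjusted p = 0.874), did not pass.

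Known inducers of Ptgs2 and Ptges were mostly higher in the knockout after methotrexate, with 9 of 11 called as risen and 0 as fallen (median 1.04), where 18.8% of all genes were called higher. The 9 include Tlr2, the gene targeted in these mice. The part of the listed genes in the rises of Ptgs2 and Ptges was not tested. The list, which includes receptors and transcription factors, was chosen with earlier results of these data known. Il1r1, the interleukin-1 receptor, rose by 3.23 ± 0.14, Tlr4 by 1.998 ± 0.13, Il1a by 1.96 ± 0.21, the transcription factor gene Cebpb by 1.40 ± 0.17, Tnf by 1.04 ± 0.20 and Tlr2 by 0.85 ± 0.23. With replicate 1 of the untreated knockout left out, Tlr2 did not pass (adjusted p = 0.0522), nor did it in the fit of the 2 knockout groups alone (adjusted p = 0.0715). The rise of Tnf in the knockout passed in 12 of 12 fits with 1 array left out. However, Tnf read 4.16 ± 0.21 in untreated knockout and 4.69 ± 0.11 in untreated wild-type mice. Between treated genotypes its difference of 0.41 passed in 0 of the 12 fits, and its interaction passed in 5 of 12. Il1b was at 7.62 in replicate 1 of the treated knockout and at 4.32 and 4.28 in the other two, against 3.93 to 4.64 in untreated knockout arrays, and did not pass (adjusted p = 0.252). Replicate 1 was the array with the highest Ptgs2 and the highest neutrophil list, but the lowest Ptges of the treated knockout.

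**Figure D4:**
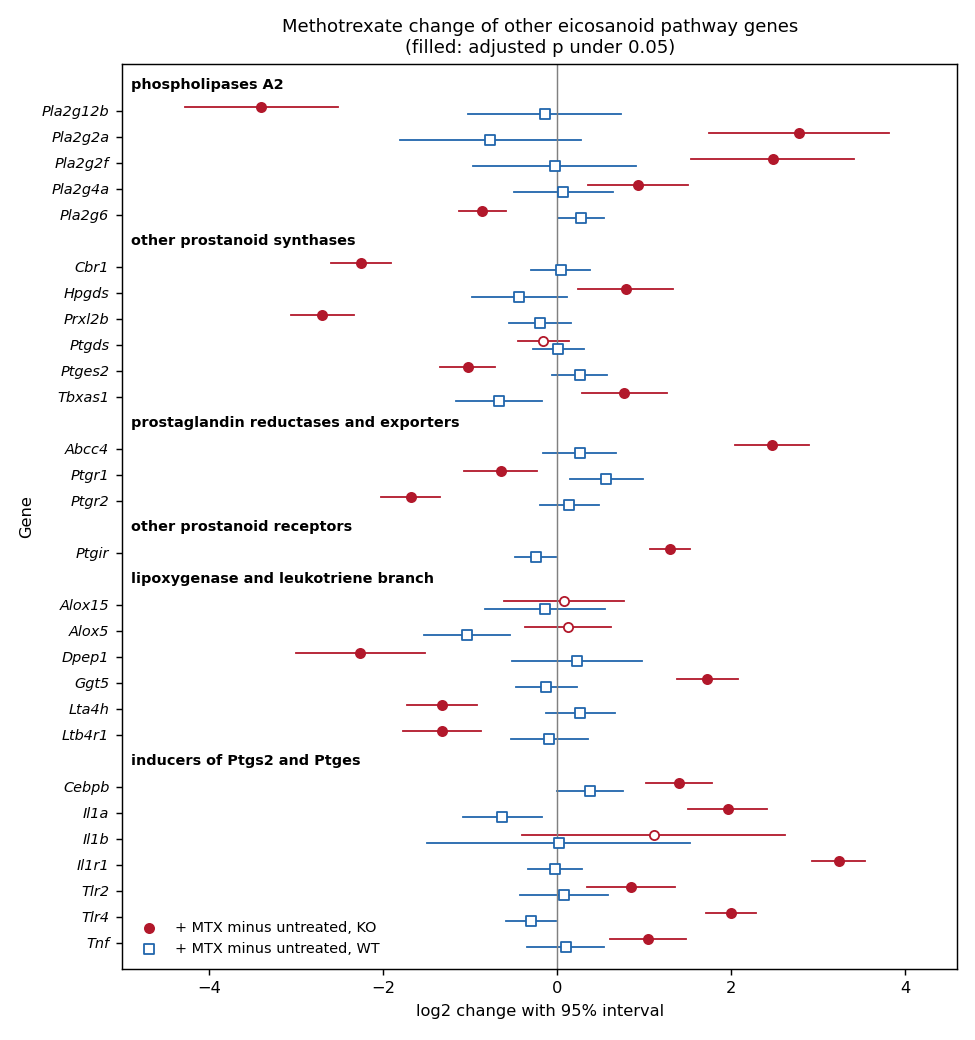
Log2 change after methotrexate (treated minus untreated) of the named genes of 6 pathway lists in knockout mice (red circles) and wild-type mice (blue squares), with 95% intervals from limma; filled symbols mark an adjusted p under 0.05. Filled symbols occur in the knockout, on both sides of 0 from -3.40 for Pla2g12b to 3.23 for Il1r1, and in none of the wild-type comparisons of these genes.

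Genes with the most similar pattern were found for the 3 genes with the widest range, by the mean absolute difference over the 12 arrays after each gene was centred on its own mean. Hpgd was nearest to Entpd8 (0.147), Tinag (0.152) and Slc22a4 (0.168), against a mean absolute deviation of 1.22 of Hpgd from its own mean. Ptges was nearest to Pla2g7 (0.133), which encodes the plasma platelet-activating factor acetylhydrolase, to the macrophage gene Cd68 (0.163) and to the perivascular and fibroblast gene Pdgfrb (0.180), against a deviation of 0.904 of its own. Ptgs2 was nearest to the complement receptor gene C5ar1 (0.224), Smim3 (0.256) and Snai1 (0.266), against a deviation of 0.928. The arrays of these genes share the same libraries and the same contrast between the groups.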

How the data were processed

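The authors deposited log2 signals per probe set made with RMA (background correction, normalisation between arrays and probe summary), per the submitters' processing notes; no version, array annotation or genome build is given in the sources used here, and the background step could not be varied. Of 35556 probe sets, 21218 had 1 gene symbol in the platform annotation, 1881 several and 12457 none here. Each of 18820 genes was represented by its probe set with the highest mean. Array medians were 4.37 to 4.56, and no 2 arrays were identical. With no read depth, the number of arrays limits precision.

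Differences were fitted with limma 3.58.1 in R 4.3.3 (lmFit, eBayes) on these values, with 1 mean per group, all 12 arrays and 8 residual degrees of freedom, and adjusted by Benjamini-Hochberg over all genes. The 5 comparisons were methotrexate in each genotype, genotype in each treatment, and the interaction. The script was tested on simulated data. The 10 genes, the lists and the rule for named genes (per list, up to 4 genes with the smallest p among those called in the knockout after methotrexate and any called in the wild type or between untreated genotypes, and 10 always named; the 3 genes of most like pattern for 3 genes of the 8) were chosen with earlier results of these data known. List signals are means over markers. Replicate numbers were not used as pairing in the main fit, by a rule that every same-numbered pair should correlate over 0.1. Same-numbered arrays' deviations correlated from -0.49 to 0.67, over 0.1 in 15 of 18 pairs, and other-numbered arrays' from -0.65 to 0.58. This rule cannot decide whether a number marks a shared step, so a replicate block was run as an alternative. Alternatives were a filter at the 25th percentile, all or averaged probe sets, 2 scalings, only the groups compared, replicate and pancreas blocks, 2 variance models and leaving out each array.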

Additional observations from a re-analysis of the deposited data

Results flagged for a closer look

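The methotrexate effect on 5 genes differed between genotypes by the interaction test of limma (knockout effect minus wild-type effect, log2): Ptges 3.21, Ptgs2 2.3, Ptgis 1.37, Ptger2 1.14 and Hpgd -2.85. Each kept its direction and its call in all 21 alternatives run for the interaction. Groups of 3 are too small for the search for single outlying arrays, which was not made.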

How the results depend on the processing

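In knockout mice after methotrexate, 5 of 8 genes were called in all 22 alternatives, and 5 to 7 in the interaction and between treated genotypes, the added calls being of Slco2a1 or Ptger3. Between untreated genotypes the count was 0 throughout. In wild-type mice the count of 1 (Ptges) was unstable: it was 0 with median centring, a trended robust variance, only the groups compared or the replicate block, 2 with the pancreas block and 3 with array weights. Leaving out each array gave 0 to 1, with 0 without any one array of the untreated or treated wild type, without replicate 2 or 3 of the untreated knockout, and without replicate 2 of the treated knockout; adjusted p for Ptges lay between 0.0163 and 0.242. The cause was not tested. With the replicate block the counts were 5 (methotrexate in knockout), 6 (treated genotypes, Ptger3 added) and 5 (interaction), and Ptges in wild-type mice had an adjusted p of 0.0828. The labels do not say what a number marks; 15 of 18 same-numbered pairs correlated over 0.1, 3 of 12 samples correlated best with their own number in every other group, and the acinar signal partly follows the number, so a shared step is neither shown nor excluded. Over all genes, wild-type calls numbered 14, against 0 with median centring, the replicate block or only the groups compared, 7 with the trended variance, 34 with the pancreas block, 1819 with array weights, and 0 to 97 with 1 array left out. Untreated genotypes gave 2, against 4 with the trended variance, 558 with array weights and 1 to 6 with 1 array left out, and the interaction gave 4479, against 7474 with array weights. The 5 pathway lists in wild-type mice gave 0, against 10 with array weights. These weights ran from 0.245 to 6.69, so every weighted result, including those of Slco2a1 and Ptger3, leans on few arrays. Dim signal limits Ptger2, whose knockout change was 0.51 to 0.99.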
